A study of Arabidopsis thaliana with 8 samples.

Results

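FBN5 (AT5G09820) and AT2G46910 belong to the fibrillins, a family of plastid proteins that sit at lipid surfaces of the chloroplast. AT2G46910 is FBN8 in the family's Arabidopsis numbering and is called so here. They are 2 of the 648 named genes tested, and of 3261 rows tested in all, which also hold spots listing several genes or none. Each was read from the 1 spot that the platform annotation assigns to that locus alone, spot 3917 for FBN5 and spot 21 for FBN8. The pair was chosen by its measured WT level, its difference between tatA and WT and the agreement of replicates 1-2 with replicates 3-4. Those values are therefore given for both genes as a description, with no test.

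The tested plants were an Arabidopsis thaliana line carrying an antisense construct against tatA (4 arrays, tatA). The labels also call it a mutant. They were compared with wild type (4 arrays, WT), and both were of ecotype Columbia 0. The twin-arginine translocase, of which TatA is a part, uses the ion gradient to move folded proteins across the thylakoid membrane. What promoter drives the construct, how many lines were used, and the tissue, age and growth of the plants are not stated in the labels. The transcript of tatA itself is not analysed here, so the level of the targeted gene cannot be set beside the values below.

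Fibrillins are also called plastid lipid-associated proteins or plastoglobulins. Some coat plastoglobules, the lipid droplets attached to thylakoids that store plastoquinone, tocopherol and carotenoids, and others are found on thylakoid membranes or in the stroma. FBN5 is known to bind the solanesyl diphosphate synthases that make the side chain of plastoquinone, the electron carrier between the photosystems. FBN8 is known from the proteome of plastoglobules. The label of thylakoids and plastoglobules cannot be checked with transcript data.

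Values are spot intensity on the deposited linear scale, which ends at 100. Median intensity over all spots was 0.365 to 0.390 on the tatA arrays and 0.429 to 0.531 on the WT arrays, so that most spots were dimmer in tatA. On the deposited scale the median log2 difference over all 3261 rows was -0.47 (tatA minus WT). After quantile normalization, which gives every array the same distribution of values, it was -0.09. The arrays of a group came in pairs that were alike, replicates 1-2 and replicates 3-4, and the labels do not say what a replicate number marks. No label says that replicates came from separate plants, so p-values measure the spread between these samples, which may be technical. In total RNA, fewer cells with a transcript and less transcript per cell cannot be told apart.

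FBN5 transcript, as read from spot 3917, was higher in tatA than in WT on every array. Its intensity was 0.644, 0.661, 0.594 and 0.552 in tatA replicates 1 to 4, against 0.239, 0.246, 0.149 and 0.182 in WT replicates 1 to 4. The groups did not overlap, and the lowest tatA array lay well above the highest WT array. Of all rows, 9.29% were higher in tatA without overlap on the deposited scale and 16.6% after quantile normalization. The means were 0.613 ± 0.0496 in tatA and 0.204 ± 0.0469 in WT (SD, n = 4 arrays each), a ratio of 3.0. The size of this difference depends on the low WT level. After quantile normalization the log2 difference was 1.98, and 1.45 with an offset added before log2. In both groups replicates 3 and 4 were lower than replicates 1 and 2. Spot 1796, which lists FBN5 together with other fibrillins, was lower in tatA and is given below.

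The position of the FBN5 spot among all spots of its own array does not depend on how an array is scaled. It lay between the percentiles 65.6 and 73.6 on the tatA arrays and between 14.8 and 30.1 on the WT arrays. FBN5 thus stood in the upper part of the distribution in tatA and in the lower part in WT. After quantile normalization its log2 level was -0.52 ± 0.15 in tatA and -2.50 ± 0.54 in WT (SD, n = 4 arrays each), a log2 difference of 1.98. Of all 3261 rows, 4.48% had a higher log2 difference than FBN5. Normalized by themselves, replicates 1-2 gave a log2 difference of 1.66 and replicates 3-4 one of 2.30. The larger value of replicates 3-4 goes with the lower WT level there (mean intensity 0.165, against 0.243 in WT replicates 1-2).

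FBN8 transcript was lower in tatA than in WT on the deposited scale. Its intensity was 0.816, 0.575, 0.673 and 0.619 in tatA replicates 1 to 4, against 1.02, 0.930, 1.55 and 1.55 in WT replicates 1 to 4. The tatA arrays ran from 0.575 to 0.816, both in replicates 1-2, while the WT arrays fell into 2 levels by replicate pair. The means were 0.671 ± 0.104 in tatA and 1.26 ± 0.334 in WT (SD, n = 4 arrays each), a ratio of 0.533. WT replicates 3-4 had 1.59 times the intensity of WT replicates 1-2.

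The groups did not overlap for FBN8 on the deposited scale, where 33.7% of all rows lay lower in tatA without overlap. After quantile normalization, where this share was 18.9%, the FBN8 groups overlapped. Its position on the array was between the percentiles 68.8 and 79.5 in tatA and between 77.5 and 86.8 in WT. The overlap came from replicates 1 and 2: tatA replicate 1, at percentile 79.5, lay above WT replicate 2, at 77.5. The normalized log2 level was -0.40 ± 0.22 in tatA and 0.12 ± 0.29 in WT (SD, n = 4 arrays each), a log2 difference of -0.52. Of all rows, 28.6% had a lower log2 difference, which places FBN8 inside the middle 50% of rows. The log2 difference was -0.22 in replicates 1-2 and -0.80 in replicates 3-4, each pair normalized by itself, and -0.88 over all arrays on the deposited scale.

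**Figure D1:**
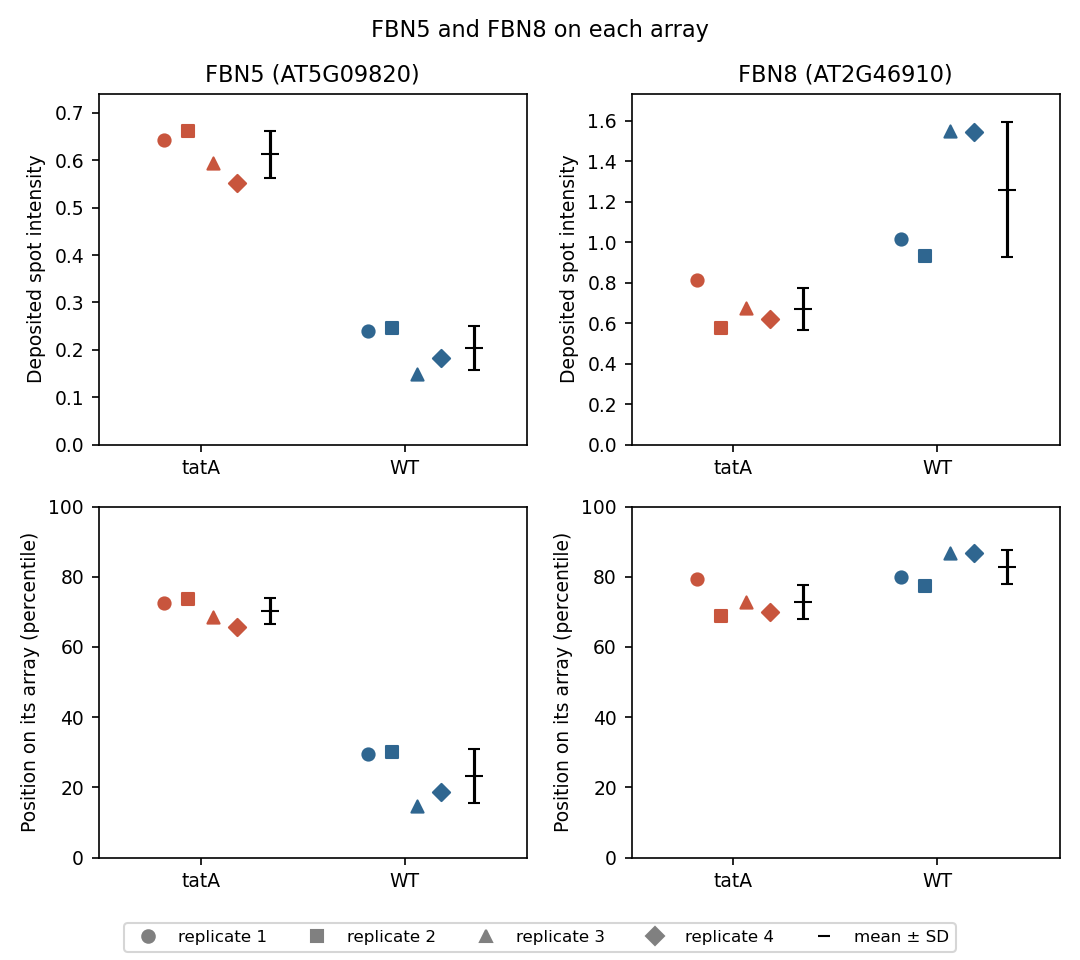
Deposited spot intensity (upper row) and percentile of the spot among all spots of its array (lower row) for FBN5 and FBN8. Points are arrays, marker shape is the replicate number, and bars are the mean ± SD of 4 arrays. FBN5 groups are apart on both scales, with tatA from percentile 65.6 to 73.6 and WT from 14.8 to 30.1, whereas FBN8 groups are apart in intensity and overlap in percentile.

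The difference in FBN5 stayed above 0 and that of FBN8 below 0 under every setting run. Both genes were chosen by this difference and by the agreement of replicate pairs, so a constant sign is no added support. The FBN5 groups did not overlap, so leaving out 1 array could hardly change its sign. For FBN5 the log2 difference ran from 1.45, with an offset added before log2, to 2.30 in replicates 3-4 alone. For FBN8 it ran from -0.88 on the deposited scale to -0.22 in replicates 1-2 alone. Leaving out 1 array at a time moved FBN5 between 1.76 and 2.14 and FBN8 between -0.62 and -0.44.

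**Figure D2:**
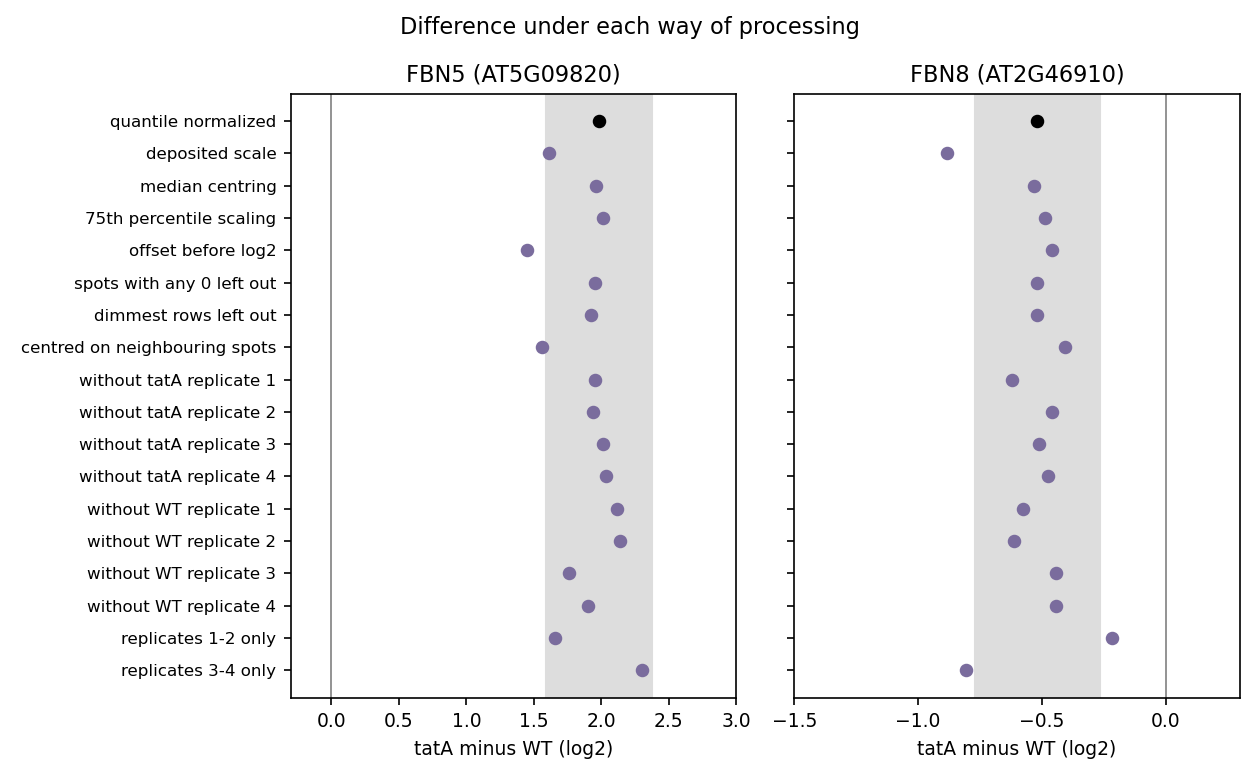
Log2 difference (tatA minus WT) of FBN5 and FBN8 under each way of processing, in rows. The black point is the quantile-normalized value over all 8 arrays, the grey band is 1 within-group SD (pooled over both groups) on either side of it, and the vertical line marks 0. All points of FBN5 lie right of 0 and all points of FBN8 left of it, and replicates 1-2 and replicates 3-4 lie on opposite sides of the band for FBN8.

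Besides FBN5 and FBN8, the family has 12 genes in the list used here. Of these, 3 had a spot of their own and none of the 3 passed the test (limma over all 3261 rows, Benjamini-Hochberg adjusted p under 0.05, a threshold that 32.1% of all rows passed, 15.3% higher and 16.8% lower in tatA). Their median log2 difference was -0.08. FBN2, a protein of plastoglobules, had intensities of 0.628, 0.572, 0.592 and 0.538 in tatA, against 0.739, 0.751, 0.774 and 0.892 in WT (replicates 1 to 4). These groups did not overlap on the deposited scale, where 33.7% of all rows lay lower in tatA without overlap. After quantile normalization the FBN2 groups overlapped. FBN2 had a normalized log2 difference of -0.06 (SE 0.12, limma adjusted p = 0.728). On the deposited scale, where the median row lay at -0.47, FBN2 had a log2 difference of -0.44 and passed (limma adjusted p = 0.0231). On that scale 42.6% of all 3261 rows passed, 1080 lower and 310 higher in tatA.

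FBN6, a thylakoid fibrillin, had means of 0.317 ± 0.109 in tatA and 0.422 ± 0.128 in WT (SD, n = 4 arrays each). Its normalized log2 difference was -0.08 (SE 0.32, limma adjusted p = 0.872), with -0.71 in replicates 1-2 and 0.55 in replicates 3-4. FBN10 had means of 0.119 ± 0.0558 in tatA and 0.214 ± 0.0633 in WT (SD, n = 4 arrays each), and a log2 difference of -0.54 (SE 0.38, limma adjusted p = 0.301). The FBN10 intensity was 0.0627, 0.124, 0.0950 and 0.194 in tatA, against 0.143, 0.179, 0.272 and 0.262 in WT. The highest tatA array of FBN10 lay above 2 of the WT arrays, so the groups overlapped. With values centred on neighbouring spot numbers FBN10 had a log2 difference of -1.20 and passed (limma adjusted p = 0.0346). With that centring 31.3% of all rows passed.

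Another 5 spots carry the names of several fibrillins in the platform annotation and cannot be assigned to any of them. They are given as a description only. Spot 1796 lists FBN5 together with FBN1a, FBN1b and FBN2, plastoglobule proteins. Its intensity was 0.201, 0.256, 0.159 and 0.0747 in tatA, against 0.658, 0.736, 0.561 and 0.460 in WT. The groups of spot 1796 did not overlap and lay in the opposite order to those of the FBN5 spot, with a normalized log2 difference of -1.55. Of all rows, 18.9% were lower in tatA without overlap after quantile normalization and 33.7% on the deposited scale. Spot 2870 lists FBN8 together with FBN1a and FBN1b. Its intensity was 0.306, 0.301, 0.271 and 0.256 in tatA, against 0.363, 0.352, 0.687 and 0.618 in WT. As for FBN8, WT replicates 3-4 were the highest arrays. The normalized log2 difference of spot 2870 was -0.42, and its groups overlapped after normalization.

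Spots 2293 and 4428 both list FBN7a and FBN7b, close relatives found in plastoglobules, and went opposite ways. Spot 2293 had means of 0.158 ± 0.0827 in tatA and 0.346 ± 0.0342 in WT (SD, n = 4 arrays each), with a normalized log2 difference of -0.91. Spot 4428 had means of 0.304 ± 0.0706 in tatA and 0.0736 ± 0.0366 in WT (SD, n = 4 arrays each), with a normalized log2 difference of 2.85. The groups of spot 4428 did not overlap, beside 16.6% of all rows higher in tatA without overlap after normalization and 9.29% on the deposited scale. Those of spot 2293 overlapped after normalization but not on the deposited scale, where 33.7% of all rows were lower in tatA without overlap. The size for spot 4428 depends on its low WT level and was 1.38 with an offset added before log2. Spot 3363 lists FBN3a and FBN3b, fibrillins of thylakoids. Its means were 2.53 ± 0.153 in tatA and 2.83 ± 0.218 in WT (SD, n = 4 arrays each), and its log2 difference was 0.19 after quantile normalization and -0.16 on the deposited scale.

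**Figure D3:**
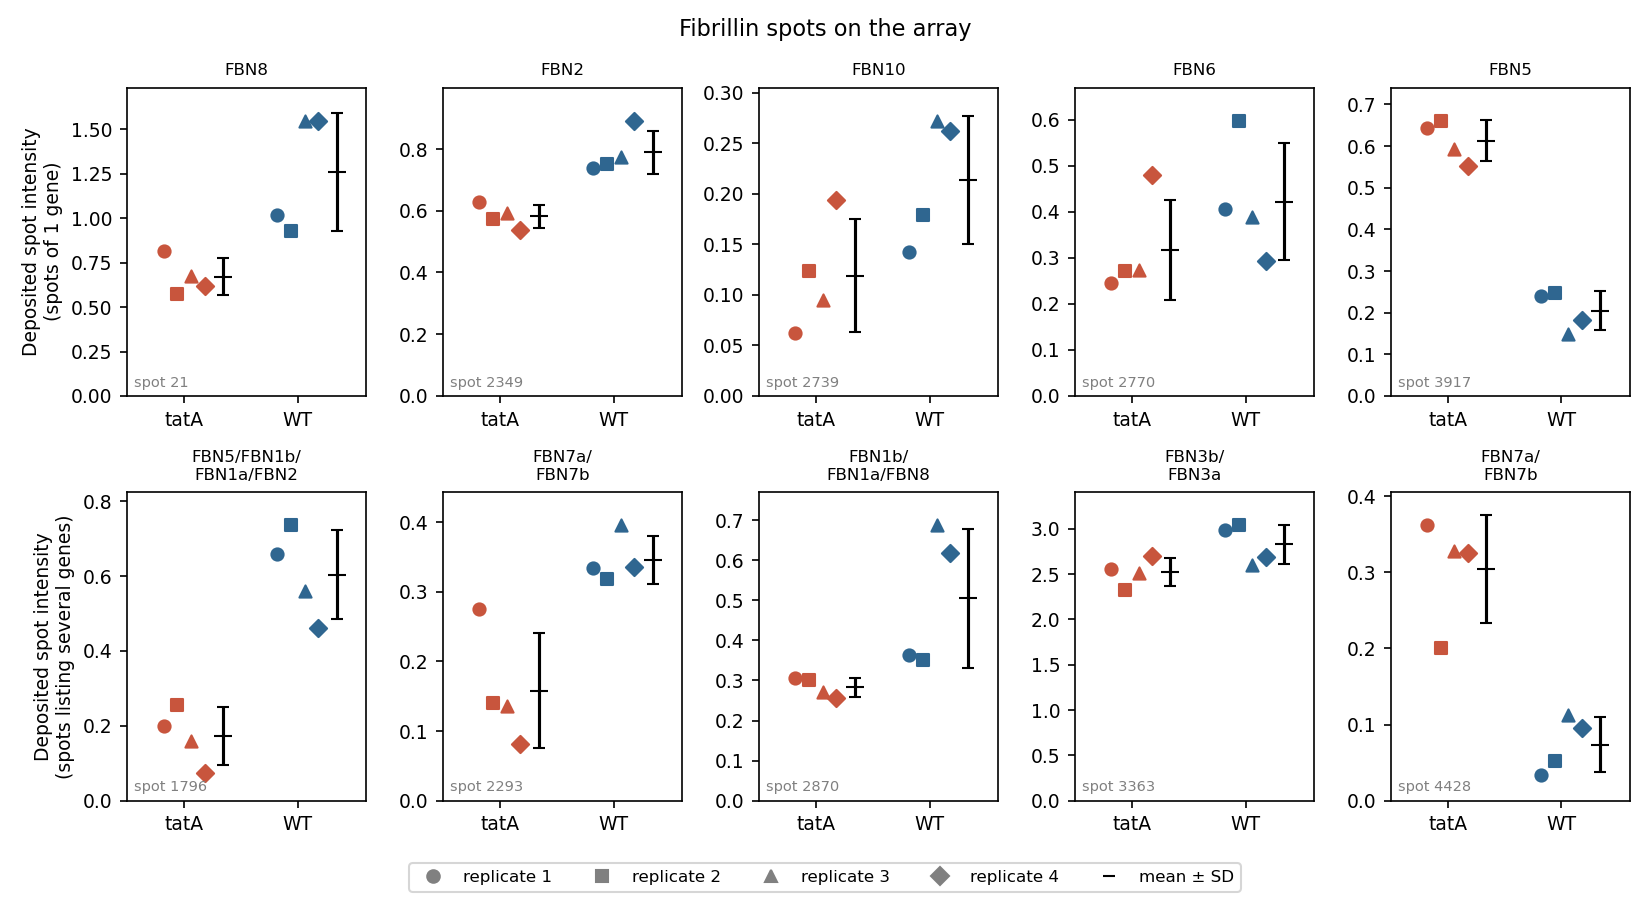
Deposited spot intensity of the 10 fibrillin spots, with spots of 1 gene in the upper row and spots listing several genes in the lower row. Points are arrays, marker shape is the replicate number, bars are the mean ± SD of 4 arrays, and each panel has its own scale starting at 0. The FBN5 spot is higher in tatA while spot 1796, which lists FBN5 among 4 genes, is lower in tatA, and the 2 spots listing FBN7a and FBN7b differ in direction.

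Genes that work beside fibrillins were taken from lists of plastoglobule proteins, prenylquinone synthesis, thylakoid lipids and membrane shape, and jasmonate synthesis. With the other fibrillins, these lists hold 89 genes, of which 10 had a spot of their own and all 10 were tested. Of the 10, 2 were higher in tatA, 0 were lower and 8 did not pass (limma adjusted p under 0.05), which is 20% beside 32.1% over all rows. On the deposited scale 1 was higher and 1 lower, beside 42.6% of all rows called, and with neighbour centring 2 were higher and 2 lower, beside 31.3%. The median log2 difference of the 10 was -0.01, beside -0.09 over all rows. With each replicate pair averaged, so that every group has 2 values, 0 of the 10 passed, beside 1.75% of all rows. Jasmonate synthesis had no gene with a spot of its own.

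Among plastoglobule proteins, 1 of 4 tested genes passed as higher in tatA, beside 15.3% of all rows, and so few genes do not describe the list. AT1G32220, a plastoglobule protein related to flavin reductases, had intensities of 0.272, 0.263, 0.432 and 0.429 in tatA, against 0.189, 0.199, 0.245 and 0.193 in WT. The groups of AT1G32220 did not overlap, beside 16.6% of all rows higher in tatA without overlap after normalization and 9.29% on the deposited scale. Its log2 change was 1.08 (SE 0.24, limma adjusted p = 0.00906). Replicates 1-2 gave 0.68 and replicates 3-4 gave 1.47, and AT1G32220 did not pass with replicate pairs averaged (adjusted p = 0.184). ABC1K6, an atypical kinase, had a log2 difference of 0.59 (SE 0.24, limma adjusted p = 0.0922). Without normalization between arrays ABC1K6 had 0.24 (adjusted p = 0.472). The metallopeptidase PGM48 had 0.21 (SE 0.45, adjusted p = 0.742) and PG18 had 0.04 (SE 0.29, adjusted p = 0.926), and on the deposited scale both values were negative (-0.15 and -0.29). Their replicate pairs went opposite ways, with -0.39 in replicates 1-2 and 0.81 in replicates 3-4 for PGM48, and 0.49 and -0.41 for PG18.

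In prenylquinone synthesis, 1 of 2 tested genes passed as higher in tatA, beside 15.3% of all rows, and so few genes do not describe the list. AT1G74470, the geranylgeranyl reductase that supplies the phytyl chain of chlorophyll and tocopherol, had intensities of 1.37, 1.33, 1.34 and 1.43 in tatA, against 1.09, 1.13, 1.35 and 1.49 in WT. On the deposited scale the groups overlapped, since WT replicates 3 and 4 lay within or above the range of tatA. The normalized log2 change of AT1G74470 was 0.50 (SE 0.09, limma adjusted p = 0.00413). It did not pass on the deposited scale (0.12, adjusted p = 0.452) or with replicate pairs averaged (adjusted p = 0.189). VTE6, the phytyl phosphate kinase of tocopherol synthesis, had a log2 difference of -0.07 (SE 0.48, limma adjusted p = 0.922), with 0.46 in replicates 1-2 and -0.60 in replicates 3-4. Among genes for thylakoid lipids and membrane shape, only FZL, a dynamin-like GTPase that shapes thylakoids, was tested, with -0.10 (SE 0.18, limma adjusted p = 0.676). FZL had -0.57 in replicates 1-2 and 0.36 in replicates 3-4. With neighbour centring, where 31.3% of all rows passed, FZL had -0.39 and passed (limma adjusted p = 0.0178).

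**Figure D4:**
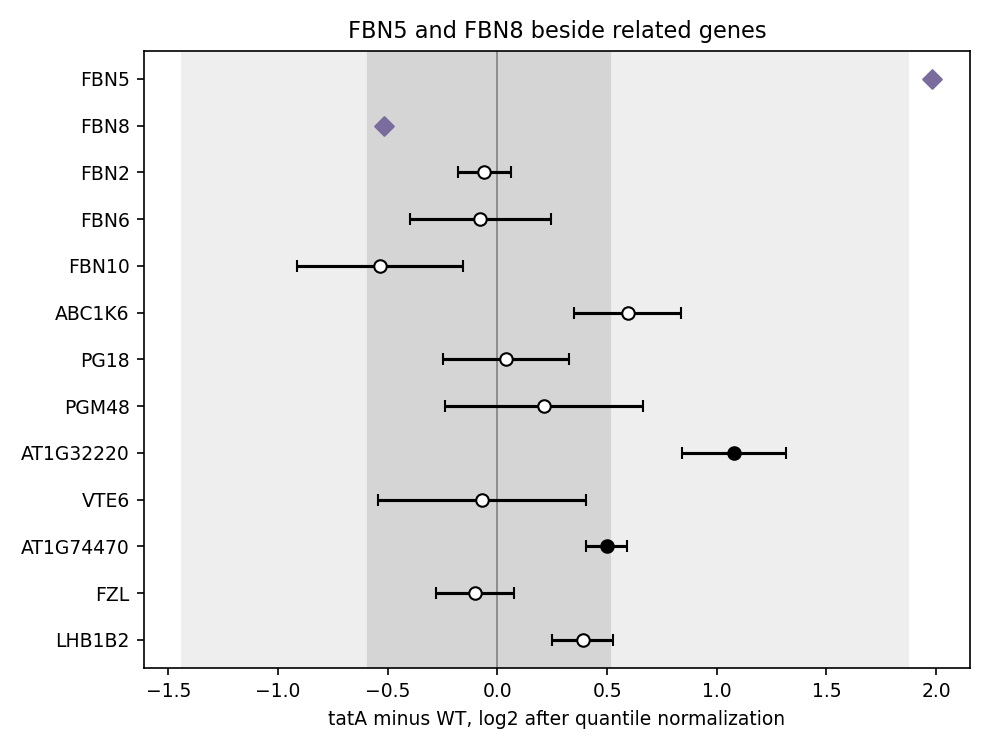
Log2 difference (tatA minus WT) after quantile normalization for FBN5 and FBN8 (diamonds, no test) and for the tested genes of the related lists and LHB1B2 (circles with SE, filled where limma's adjusted p was under 0.05). The dark grey band holds the middle 50% of all 3261 rows and the light band reaches from the 5th to the 95th percentile. FBN5 at 1.98 lies outside the light band, FBN8 at -0.52 lies inside the dark band, and AT1G32220 and AT1G74470 are the filled circles.

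The tissue could be checked with only 1 of 29 marker genes for green tissue, root, pollen, seed and guard cells. LHB1B2, a light-harvesting protein of green tissue, had intensities of 7.29, 8.97, 7.84 and 7.95 in tatA, against 5.56, 8.33, 5.60 and 6.23 in WT. It had a log2 difference of 0.39 (SE 0.14) and did not pass (limma adjusted p = 0.0624), except with median centring (0.69, adjusted p = 0.0204), 75th percentile scaling (0.73, adjusted p = 0.0137), neighbour centring (0.78, adjusted p = 0.0149), the replicate number as a block (adjusted p = 0.031) or without WT replicate 2 (0.55, adjusted p = 0.00353). Under the settings where LHB1B2 passed, 29% to 31.5% of all rows passed. None of the markers of root, pollen, seed or guard cells had a spot of its own. The part of tissue or cell makeup in the values of FBN5 and FBN8 was not tested.

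The named genes most like each fibrillin were found by the root mean square distance between log2 profiles over the 8 arrays, each profile centred on its own mean. For FBN5 the 3 nearest of 646 genes were AT3G06870 (distance 0.208), AT1G32520 (0.222) and AT1G55440 (0.284), beside a median distance of 1.20. AT3G06870 averaged 1.34 ± 0.140 in tatA and 0.383 ± 0.143 in WT (SD, n = 4 arrays each). AT1G32520 averaged 0.583 ± 0.0799 in tatA and 0.176 ± 0.00758 in WT (SD, n = 4 arrays each). Their normalized log2 differences were 2.24 and 2.07, and AT1G55440 had one of 1.76. Genes chosen by likeness to FBN5 on these arrays share its difference through that choice. With values centred on neighbouring spots, 1 of these 3 genes was still among the nearest.

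For FBN8 the 3 nearest genes were AT4G13680 (distance 0.139), SECE1 (0.142) and AT4G26370 (0.151), beside a median distance of 0.537. SECE1, a subunit of the thylakoid Sec translocase, averaged 0.507 ± 0.0220 in tatA and 1.05 ± 0.293 in WT (SD, n = 4 arrays each). AT4G13680 averaged 1.45 ± 0.169 in tatA and 2.69 ± 0.513 in WT (SD, n = 4 arrays each). The normalized log2 difference was -0.53 for AT4G13680, -0.64 for SECE1 and -0.49 for AT4G26370. As in FBN8, it was larger in size in replicates 3-4 than in replicates 1-2 for all 3. That likeness follows from choosing them by their profile over these arrays. With neighbour centring, 0 of these 3 were among the nearest to FBN8. These distances share the 8 arrays and their scaling and are a description.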

How the data were processed

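Spot intensity was measured on 8 arrays, 4 of the tatA antisense line and 4 of WT, and sample titles gave groups and replicate numbers. The values as deposited are intensity on a linear scale, never negative, in 1 column per array. What the authors did to read, background-correct or scale the spots is not stated in the labels. The deposited values cover 3439 spots, of which the platform annotation gives 692 a gene of their own, 870 several genes and 1877 none. Spot numbers run past that count, as for spot 4428, so neighbours in order of spot number need not have consecutive numbers. Names were matched through the gene identifier to the RefSeq annotation of TAIR10.1 (690 of 692 spots). No build is named for the array, so no coordinates are given.

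Spots at 0 on more than 4 arrays (177) were left out. Each remaining zero took the array's smallest positive value, log2 was taken and arrays were quantile-normalized, since their medians differed. Spots of 1 locus were averaged, which left 3261 rows. FBN5 and FBN8 have no zeros. limma 3.58.1 in R 4.3.3 (lmFit, eBayes with an intensity trend, two-sided, group as the only term) was fitted on all rows, with Benjamini-Hochberg adjustment over all of them. The fit was tested on simulated data with independent noise on each array, which leaves out the likeness within replicate pairs. The number of arrays limits the precision.

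Replicate numbers were checked for pairing. Same-numbered tatA and WT arrays, each as deviation from its group mean, correlated across rows at 0.284, 0.311, 0.266 and 0.337 for replicates 1 to 4, and those of unlike numbers at -0.241 to 0.131. All 4 lie over 0.1, so the number was used as a block in an alternative fit. Arrays of unlike number also reached 0.131, so a value over 0.1 does not by itself mark a pair. No label says what a number marks.

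Other settings were the deposited scale, median centring, 75th percentile scaling, 0.118 added before log2 (percentile 10 of the positive values), spots with any 0 or the dimmest 25% of rows left out, and centring on the median of the 25 spots on each side by spot number. Others were the replicate number as a block, replicate pairs averaged or as a random block, no trend, robust variance, each array left out and each replicate pair alone. Running them on spots that list several fibrillins and on LHB1B2 was chosen after seeing the data.

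FBN5 and FBN8 and the gene lists were chosen with earlier results of these data known. Genes named are FBN5, FBN8, all list and marker genes with a spot of their own, and the 3 named genes nearest in profile to each. Spots listing several fibrillins were added after their annotation was seen. Plots were made in Python 3.11.15 with matplotlib 3.10.9.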

Additional observations from a re-analysis of the deposited data

Results flagged for a closer look

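Each group of 4 arrays was searched for an array that stood apart from the other three, by the gap to its nearest neighbour as a share of the group's range of normalized log2 values. Over the 26 groups of FBN5, FBN8, the 10 related genes and LHB1B2, 3 passed Dixon's 95% critical value, and chance flags about 1 in 20 groups. FBN5 and FBN8 had no such array. FBN2 had a low value on WT replicate 3 (share 0.918), at a log2 level of -0.71 where the other WT arrays lay between -0.48 and -0.46. Its deposited intensity there, 0.774, lay within the range of the other WT arrays, 0.739 to 0.892. FBN6 had a high value on tatA replicate 4 (share 0.830), with an intensity of 0.479 against 0.245 to 0.272 on the other tatA arrays. The gene for the flavin reductase-related protein AT1G32220 had a low value on WT replicate 4 (share 0.875), at a log2 level of -2.68 where the other WT arrays lay between -2.40 and -2.36. Its deposited intensity there, 0.193, lay within the range of the other WT arrays, 0.189 to 0.245.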

How the results depend on the processing

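Of the settings run, the offset (1.45) and centring on neighbouring spots (1.56) moved the log2 difference of FBN5 by more than 1 SD, and the deposited scale (-0.88), replicates 1-2 alone (-0.22) and replicates 3-4 alone (-0.80) moved that of FBN8. Leaving out 1 array gave 1.76 to 2.14 for FBN5, -0.62 to -0.44 for FBN8, 784 to 951 rows passing over all genes, and 2 related genes passing each time. Over all rows 1046 passed, 499 higher and 547 lower in tatA, against 310 higher and 1080 lower on the deposited scale. With replicate pairs averaged 57 passed, and with them as a random block 537. With the replicate number as a block 1027 passed and FBN5 and FBN8 kept differences of 1.98 and -0.52, since the design is balanced. That block changed no call among the 10 related genes.

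Of those 10, 0 passed with replicate pairs averaged 2 with the pairs as a random block, and 4 with centring on neighbouring spots, which added FBN10 (-1.20) and FZL (-0.39) where 31.3% of all rows passed. Values near 0 changed sign, none of them passing: FBN2 under neighbour centring (0.32), VTE6 under neighbour centring (0.38) and the offset (0.0031), and PG18 (-0.29) and PGM48 (-0.15) on the deposited scale. Spot 3363 also changed sign there (-0.16). Leaving out 1 array turned FBN6 (0.02 and 0.15; range -0.30 to 0.15), PG18 (-0.05, -0.003, -0.10 and -0.001; range -0.10 to 0.22), PGM48 (-0.17; range -0.17 to 0.58) and VTE6 (0.20, 0.21 and 0.05; range -0.46 to 0.21). The causes were not tested.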
